A study of Homo sapiens with 30 samples.

Results

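The genes described here are 7 integrin subunits and 2 laminin chains, chosen by name from the 26255 gene rows of a Cuffdiff expression table: ITGA2, ITGA3, ITGA5, ITGA6, ITGB1, ITGB4, ITGB6, LAMA3 and LAMB3. All 9 had a row and an FPKM (fragments per kilobase of transcript, scaled to the number of mapped reads) of at least 1 in each of 4 lines, so none was lost to a filter on low values. The lines were made from RWPE1, an immortalized line of normal human prostate epithelial cells, by retroviral transduction and drug selection. RWPE1-vector carried the empty pQCXIH and pBabe-puro vectors. RWPE1-ERG carried pQCXIH with ERG (UniProt isoform 1) and the empty pBabe-puro. RWPE1-mAKT carried the empty pQCXIH and a myristoylated, constitutively active AKT in pBabe-puro, and RWPE1-ERG+mAKT carried ERG and the myristoylated AKT together. ERG and AKT were therefore expressed from viral vectors and not from their own promoters, and every RWPE1 line was grown in medium with added EGF. RNA-seq was done on 3 libraries a line, which the authors pooled into 1 FPKM a line, so no spread between libraries can be given for any expression value below and no test was made from the pooled values. The authors' own tests were not used here. Peaks came from ChIP-seq of ERG (RWPE1-ERG+mAKT, and VCaP given DMSO, a prostate cancer line with a TMPRSS2/ERG rearrangement), of ERK2 (the vector and ERG lines) and of H3K27me3 (the vector and ERG lines and a line with the ERG S96E mutant), and from ATAC-seq of the 3 lines that carry ERG, mAKT or both, with 1 peak list each. The lines used for ERK2 and H3K27me3 carried the pQCXIH construct alone, without pBabe-puro.

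Integrins are receptors made of an α and a β subunit that join the extracellular matrix to the cytoskeleton. Laminin-332 is a basement membrane protein, and LAMA3 and LAMB3 encode its α3 and β3 chains. Basal epithelial cells, including those of the prostate, hold it through integrin α6β4 (ITGA6 with ITGB4) in hemidesmosomes and through α3β1 (ITGA3 with ITGB1). Integrin α2β1 mainly binds collagen, α5β1 binds fibronectin, and αvβ6 binds fibronectin and activates latent TGF-β. ERG is an ETS family transcription factor, and AKT is a kinase that integrin signaling through PI3K can activate.

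The transduced genes matched the labels. ERG was at 0.264 FPKM in RWPE1-vector and 0.435 in RWPE1-mAKT, against 358 in RWPE1-ERG and 328 in RWPE1-ERG+mAKT. AKT1 was at 58.7 in RWPE1-vector and 64.2 in RWPE1-ERG, against 156 in RWPE1-mAKT and 281 in RWPE1-ERG+mAKT, so the line with both constructs had 1.80-fold the AKT1 level of the line with mAKT alone. All 6 basal prostate markers were at 1 FPKM or more in every line, while KLK2 and KLK3, which define differentiated luminal cells, were listed at 0 in all 4 lines, and each endothelial marker was below 1 in every line. The summed FPKM of the basal markers was 6142 in RWPE1-vector, 1980 in RWPE1-ERG, 6272 in RWPE1-mAKT and 5035 in RWPE1-ERG+mAKT. That of KRT8, KRT18, EPCAM and CDH1 was 1538, 3743, 1781 and 2004 in the same order. The basal sum was carried by KRT5 and KRT14, and with ERG 3 of the 6 basal markers were at least 1.5-fold lower, 1 (KRT15) was higher and 2 were neither, while KRT8 and KRT18 were higher. The part of these markers in the values of the genes described here was not tested. Ratios below use FPKM as deposited, on which the median expressed gene differed between lines by 0.08 or less on the log2 scale (the lowest median was −0.08).

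The genes were abundantly expressed and kept nearly the same order in every line. Because FPKM is per length, levels can be set side by side between genes, and in RWPE1-vector cells they ran from 379 FPKM for ITGB4 through 199.9 for ITGB1, 187 for ITGA3, 125 for ITGA6, 115 for LAMB3, 49.1 for LAMA3, 45.1 for ITGA5 and 27.1 for ITGB6 to 16.4 for ITGA2. Their median was 115 FPKM, against a median of 11.7 over all genes at 1 FPKM or more in that line. ITGB4 was the highest of the 9 in every line and ITGA2 the lowest in every line. Which neighbours in this order differ cannot be said, since the pooled values carry no spread. LAMB3 stood below ITGB1, ITGA3 and ITGA6 in RWPE1-vector and RWPE1-mAKT cells, but above all of them in RWPE1-ERG cells.

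**Figure D1:**
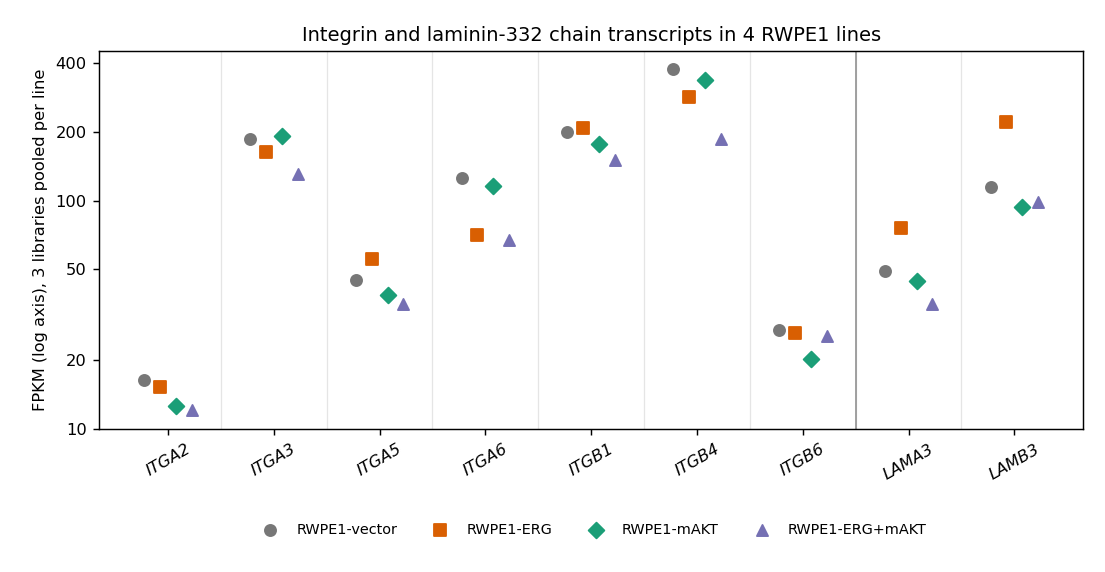
FPKM of the 9 genes in the 4 RWPE1 lines, on a log axis, with 1 point per line and 3 libraries pooled in each point and so no error bars. The points of LAMA3 and LAMB3 stand highest in RWPE1-ERG cells (75.9 and 222 FPKM), and that of ITGB4 stands lowest in RWPE1-ERG+mAKT cells (186 FPKM).

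LAMA3 and LAMB3, the α3 and β3 chains of laminin-332, were higher with ERG alone and were back at or below the vector level when mAKT was added. LAMA3 was at 49.1 FPKM in RWPE1-vector, 75.9 in RWPE1-ERG, 44.6 in RWPE1-mAKT and 35.2 in RWPE1-ERG+mAKT. RWPE1-ERG was thus the highest line and the line with both constructs the lowest. LAMB3 was at 115 FPKM in RWPE1-vector, 222 in RWPE1-ERG, 94.2 in RWPE1-mAKT and 99.1 in RWPE1-ERG+mAKT, with RWPE1-ERG alone standing apart. ERG alone went with a 1.55-fold higher level of LAMA3 and a 1.93-fold higher level of LAMB3. Between RWPE1-ERG and RWPE1-ERG+mAKT cells the level was lower by 2.16-fold for LAMA3 and by 2.24-fold for LAMB3. With mAKT and no ERG, LAMA3 was 1.10-fold and LAMB3 1.22-fold lower than in the vector line. Against the vector line, RWPE1-ERG+mAKT cells had 1.40-fold less LAMA3 and 1.16-fold less LAMB3 transcript. With the lines rescaled to the same summed FPKM, the log2 ratio of ERG over vector was 0.07 for LAMA3 and 0.39 for LAMB3, neither past 1.5-fold, and without small RNA genes in the sum it was 0.45 and 0.77. The log2 ratio of ERG+mAKT over ERG stayed past 1.5-fold for both on either scale, at −0.73 and −0.85 for LAMA3 and at −0.79 and −0.91 for LAMB3.

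On the scale as deposited, ITGA6 and ITGB4, the subunits of the hemidesmosome integrin α6β4, were lowest where ERG and mAKT were expressed together, but they reached that level differently. ITGA6 was at 125 FPKM in RWPE1-vector, 70.9 in RWPE1-ERG, 116 in RWPE1-mAKT and 67.2 in RWPE1-ERG+mAKT, so that the lines with ERG were low and those without it high. ERG went with a 1.76-fold lower ITGA6 level without mAKT and a 1.73-fold lower level with it. ITGB4 was at 379 FPKM in RWPE1-vector, 283 in RWPE1-ERG, 339 in RWPE1-mAKT and 186 in RWPE1-ERG+mAKT. It was 1.34-fold lower with ERG without mAKT, and 1.82-fold lower with ERG in mAKT cells. RWPE1-ERG+mAKT cells had 1.86-fold less ITGA6 and 2.03-fold less ITGB4 transcript than the vector line.

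The subunits of the other laminin and fibronectin receptors moved less. ITGA3, the α subunit of α3β1, was at 187 FPKM in RWPE1-vector, 164 in RWPE1-ERG, 192 in RWPE1-mAKT and 131 in RWPE1-ERG+mAKT. It was 1.46-fold lower in RWPE1-ERG+mAKT than in RWPE1-mAKT cells, just inside the limit of 1.5-fold used for counting. ITGB1, the common β subunit, was at 199.9 FPKM in RWPE1-vector, 209 in RWPE1-ERG, 178 in RWPE1-mAKT and 150.2 in RWPE1-ERG+mAKT, and differed by at most 1.39-fold between any pair of lines. ITGA5, the α subunit of the fibronectin receptor, was at 45.1 FPKM in RWPE1-vector, 55.5 in RWPE1-ERG, 38.5 in RWPE1-mAKT and 35.3 in RWPE1-ERG+mAKT. Its ratio between RWPE1-ERG and RWPE1-ERG+mAKT cells was 1.57, with RWPE1-ERG the highest line as for the laminin chains. The table's row for ITGA5 spans a wider stretch of chromosome 12 than the gene does, and the effect of this on its values was not tested.

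ITGA2 and ITGB6 varied least. ITGA2, the α subunit of the collagen receptor, was at 16.4 FPKM in RWPE1-vector, 15.3 in RWPE1-ERG, 12.6 in RWPE1-mAKT and 12.1 in RWPE1-ERG+mAKT, with the mAKT lines lower. ITGB6, whose product pairs with αv, was at 27.1 FPKM in RWPE1-vector, 26.4 in RWPE1-ERG, 20.3 in RWPE1-mAKT and 25.5 in RWPE1-ERG+mAKT, with RWPE1-mAKT the lowest line. With ERG added to mAKT cells, ITGB6 had a log2 ratio of 0.33, the highest of the 9 in that comparison. Its widest ratio between lines was 1.33 and that of ITGA2 was 1.36, below those of the other 7 genes, which ran from 1.39 for ITGB1 to 2.36 for LAMB3.

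A ratio of at least 1.5-fold, among genes at 1 FPKM or more in either line, was counted as past the limit. It is a description of pooled values and not a test. For ERG over vector, 2 of the 9 genes were higher by this rule (LAMA3 and LAMB3; 9.62% of 12375 expressed genes) and 1 was lower (ITGA6; 5.15%). For mAKT over vector, none of the 9 was higher (3.20% of all) or lower (3.00%), although 8 of 9 ratios were below 1, against 45.0% of all. For ERG+mAKT over ERG, 4 of 9 were lower, namely ITGA5, ITGB4, LAMA3 and LAMB3 (9.56% of all), and none was higher (6.17%). Of these, ITGA5 and ITGB4 no longer passed on equal summed FPKM, with log2 ratios of −0.27 and −0.23. With ratios centred on the median expressed gene, ITGB4 (−0.55) did not pass and 3 genes did. For ERG+mAKT over mAKT, ITGA6 and ITGB4 were lower (3.71% of all) and none was higher (6.15%). For ERG+mAKT over vector, the same pair, ITGA6 and ITGB4, was lower (5.34% of all) and none was higher (7.38%).

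**Figure D2:**
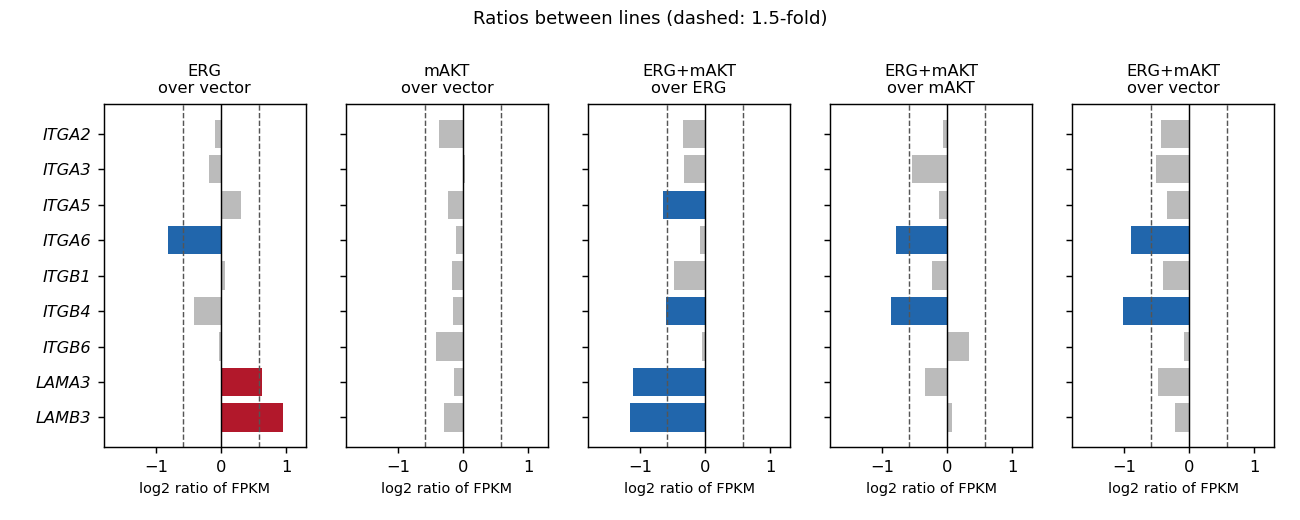
Log2 ratios of FPKM in 5 comparisons for the 9 genes, with bars starting at 0 and dashed lines at 1.5-fold. Bars past the limit are red where the gene was higher and blue where it was lower, and in the comparison of RWPE1-ERG+mAKT with RWPE1-ERG every bar lies below 0 on the scale as deposited.

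All 9 genes had a lower FPKM in RWPE1-ERG+mAKT than in RWPE1-ERG cells, and all 9 a lower one than in RWPE1-vector cells, while 56.8% and 60.6% of all expressed genes did so. In the first of these comparisons the ratios turned above 1 for ITGA2, ITGA3, ITGA6 and ITGB6 when each line was rescaled to the same summed FPKM, and in the second none did. The median log2 ratio of the 9 genes was −0.48 for ERG+mAKT over ERG, against −0.05 for all expressed genes, and −0.44 for ERG+mAKT over vector, against −0.07. The summed FPKM differed between lines, from 846058 in RWPE1-vector to 1246090 in RWPE1-ERG, because small RNA genes such as MIR6087 held much of it. Rescaling to equal sums therefore moved the median gene by −0.56 on the log2 scale for ERG over vector, with 8.16% of all calls then higher in place of 65.2%, and by 0.38 for ERG+mAKT over ERG, with 84.0% in place of 39.2%. The distance of each gene from the median gene is the same on each scale, and LAMA3 and LAMB3 lay above the median gene by 0.64 and 0.96 on the log2 scale for ERG over vector.

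The 2 by 2 design sets the ERG effect with mAKT (ERG+mAKT over mAKT) against that without it (ERG over vector). Their difference was not tested because each line has 1 pooled value. The lines with mAKT also differed in AKT1, at 156 FPKM in RWPE1-mAKT and 281 in RWPE1-ERG+mAKT cells. The part of this AKT1 difference in the values below was not tested. LAMA3 had a log2 ratio of 0.63 without mAKT and −0.34 with it, a difference of −0.97. LAMB3 had 0.95 without and 0.07 with mAKT, a difference of −0.88. These were the only 2 of the 9 with a difference past 1.5-fold, both lower, where 10.5% of 12458 genes were lower by that rule, and none was higher, where 5.92% were. If the effects had simply multiplied, LAMB3 would have been at 182 FPKM and LAMA3 at 69.0 in RWPE1-ERG+mAKT cells, against the 99.1 and 35.2 deposited. For ITGA6 the difference was 0.03 and for ITGA2 it was 0.04, close to the product of the effects on the scale as deposited. ITGB4 (−0.44), ITGA5 (−0.42), ITGA3 (−0.36) and ITGB1 (−0.30) were lower than the product of the effects, and ITGB6 (0.37) was higher. These differences depend on the scale. When each line was rescaled to the same summed FPKM the difference turned above 0 for ITGA3, ITGA5, ITGB1 and ITGB4, and LAMA3 and LAMB3, at −0.40 and −0.30, no longer passed 1.5-fold. ITGA2 (0.61), ITGA6 (0.60) and ITGB6 (0.94) then passed it as higher, where 94.6% of the calls over all genes were higher in place of 36.0%.

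**Figure D3:**
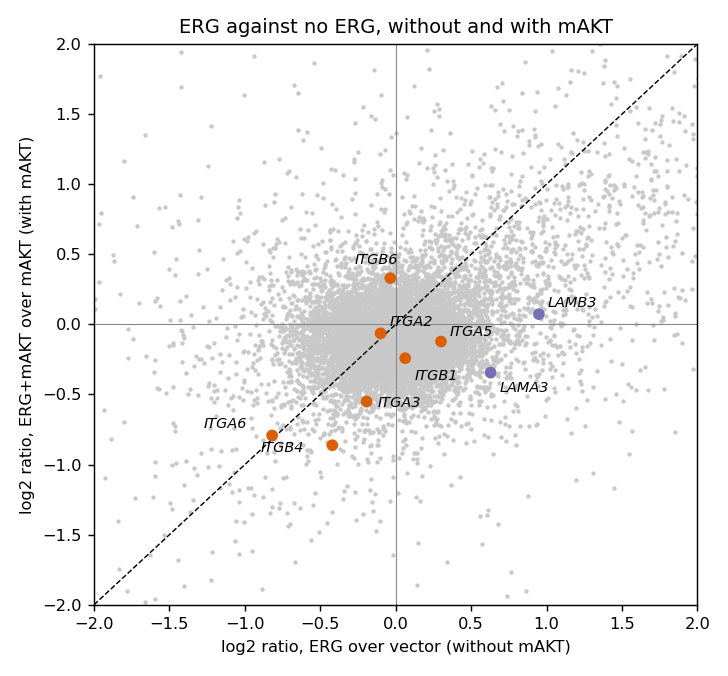
Log2 ratio of ERG+mAKT over mAKT against that of ERG over vector, with 1 point a gene, expressed genes in grey where they fall between −2 and 2 on both axes, integrin subunits in orange and laminin chains in purple. On the scale as deposited, ITGA6 and ITGA2 lie next to the dashed line of equal effects, and LAMA3 and LAMB3 lie furthest below it among the named genes.

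Other subunits and ligands that work with these genes were read from lists of partners. Of 19 other integrin subunits, 6 were at 1 FPKM or more in RWPE1-vector or RWPE1-ERG cells, none was at least 1.5-fold higher with ERG (9.62% of all genes were), and ITGB5 and ITGB8 were at least 1.5-fold lower (5.15% of all). ITGAV, the αv subunit that pairs with ITGB6, was level, at 10.6, 11.0, 9.95 and 10.1 FPKM in the vector, ERG, mAKT and ERG+mAKT lines. ITGB5 was at 36.4 FPKM in RWPE1-vector, 24.1 in RWPE1-ERG, 24.3 in RWPE1-mAKT and 13.1 in RWPE1-ERG+mAKT cells, so that each construct went with a lower level and both together with the lowest. ITGB8, at 2.71, 1.49, 3.26 and 3.46 FPKM in the same order, was the 1 expressed subunit of that list that was at least 1.5-fold higher in RWPE1-ERG+mAKT than in RWPE1-ERG cells (6.17% of all genes were). ITGA4, a fibronectin-binding α subunit, was at 2.50, 2.37, 1.02 and 0.600 FPKM, lower in the lines with mAKT.

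The hemidesmosome partners of α6β4 did not move as a group. COL17A1, the transmembrane collagen XVII of hemidesmosomes, was at 209.5 FPKM in RWPE1-vector, 79.4 in RWPE1-ERG, 169.8 in RWPE1-mAKT and 76.8 in RWPE1-ERG+mAKT. Its order of lines was that of ITGA6, low where ERG was expressed. DST, which encodes a plakin of hemidesmosomes, was at 22.2, 13.3, 33.9 and 33.3 FPKM, so only RWPE1-ERG was below the vector line. PLEC, the plectin that binds integrin β4, was at 184, 171, 177 and 143 FPKM, and CD151, the tetraspanin bound to α3β1 and α6β4, was at 137, 173, 134 and 118. For ERG over vector, 2 of these 4 genes were lower past 1.5-fold (5.15% of all genes) and 0 were higher (9.62%), with a list median of −0.43 on the log2 scale against −0.01 for all expressed genes.

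Several other matrix ligands of integrins were, like LAMA3 and LAMB3, higher with ERG alone and lower once mAKT was added. Of 9 such genes that were expressed, 5 were higher with ERG alone (FN1, NID1, THBS1, COL4A2 and COL4A1, the last of these named after its value was seen) and 2 were lower (COL7A1 and TNC), where 9.62% and 5.15% of all genes were. All 5 were lower in RWPE1-ERG+mAKT than in RWPE1-ERG cells past the limit, and COL7A1 was higher. FN1, the fibronectin bound by α5β1, was at 83.7 FPKM in RWPE1-vector, 228 in RWPE1-ERG, 53.4 in RWPE1-mAKT and 23.8 in RWPE1-ERG+mAKT. THBS1, which encodes thrombospondin 1, was at 229, 491, 188 and 163 FPKM in that order. COL7A1, the collagen VII of anchoring fibrils that laminin-332 binds, was at 59.6, 30.6, 56.7 and 69.9 FPKM. It was lowest in RWPE1-ERG cells, where LAMA3 was highest, and highest in RWPE1-ERG+mAKT cells, where LAMA3 was lowest. Rescaled to equal sums, FN1 alone of the 5 stayed past 1.5-fold for ERG over vector, with a log2 ratio of 0.89, and the other 4 lay between 0.17 (COL4A1) and 0.54 (THBS1).

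**Figure D4:**
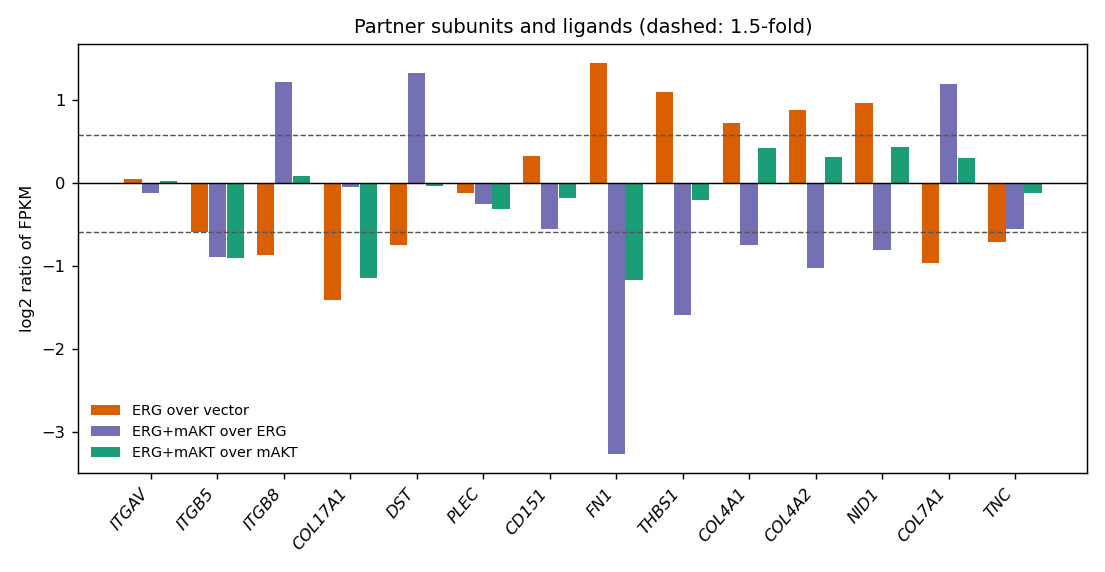
Log2 ratios of FPKM for partner integrin subunits, hemidesmosome genes and matrix ligands in 3 comparisons, with 1 bar a comparison, bars starting at 0 and dashed lines at 1.5-fold. FN1 has a log2 ratio of 1.45 for ERG over vector and −3.26 for ERG+mAKT over ERG, the widest of the genes drawn.

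Among integrin adaptors and focal adhesion proteins the counts past 1.5-fold were small. Of 22 expressed genes of that list, 1 was higher by this limit with ERG alone, PARVA (9.62% of all genes were), and 2 were lower, FERMT1 and TNS4 (5.15% of all). ILK, the integrin-linked kinase, and PXN, the adaptor paxillin, were the 2 that were at least 1.5-fold lower in RWPE1-ERG+mAKT than in RWPE1-ERG cells (9.56% of all genes were), and the median log2 ratio of the list was −0.23 there, against −0.05 for all genes. PXN was at 126, 118, 127 and 77.3 FPKM in the vector, ERG, mAKT and ERG+mAKT lines, so that only the line with both constructs was low. For mAKT over vector, 0 of 22 passed the limit in either direction.

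The genes most like LAMB3 and LAMA3, the 2 with the widest range, were found by the distance between their profiles over the 4 lines among 9316 genes at 5 FPKM or more in some line. Closest to LAMB3 were SEMA7A, SH3KBP1 and PRKCDBP, at distances of 0.05, 0.07 and 0.10 on the log2 scale. SEMA7A, a semaphorin, was at 7.32 FPKM in RWPE1-vector, 15.2 in RWPE1-ERG, 6.12 in RWPE1-mAKT and 6.49 in RWPE1-ERG+mAKT. Closest to LAMA3 were AASS, FZD2 and INO80C, at 0.05, 0.06 and 0.07. With only 4 lines, no link between these genes is implied.

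Peaks were counted from 20 kb before to 20 kb after each gene on hg19, with gene positions from GENCODE. With both constructs expressed, ERG ChIP-seq gave 10 peaks at 6 of the 9 genes, where 31.8% of 11598 expressed genes had a peak. ITGA5, ITGB4 and LAMB3 had none. The 10 peaks amount to 0.860 per 100 kb around the 9 genes, against 0.443 per 100 kb around all expressed genes. Of the 10, 2 had a q-value of at most 0.01 (450 of 9113 in the whole list did), and 4 had one above 0.5. The strongest lay in intron 1 of ITGA6, at chr2:173311322-173311495, 19.1 kb after the start of the canonical transcript, with a fold enrichment over input of 6.23 (q = 0.000332), in the top 1.94% of the list by fold. The other, at ITGB1, lay at chr10:33274759-33274917 within the span of longer ITGB1 transcripts and at −27.7 kb from the canonical start, with a fold enrichment of 6.13 (q = 0.000486). Neither was in an ATAC peak of any of the 3 lines.

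Of the 10 ERG peaks, 4 overlapped an ATAC peak and 1 of these overlapped a peak of the RWPE1-ERG+mAKT line itself, against 18.5% of the whole ERG list. That site lay at −5.40 kb from the start of ITGB6, at chr2:161062087-161062279, was open in all 3 lines, and had a fold enrichment of 3.52 (q = 0.701). A second ITGB6 peak, at chr2:161063922-161064034, overlapped an ATAC peak of RWPE1-ERG cells only. It lay at the edge of an open site that, with ATAC peaks joined over the lists, was called in all 3. ITGA3 had a peak at chr17:48128710-48128818, at −4.71 kb from the start, and another at chr17:48141833-48141983 over exon 3 (fold enrichment 4.94, q = 0.0306). Each overlapped an ATAC peak of RWPE1-ERG and of RWPE1-mAKT cells but none of the RWPE1-ERG+mAKT list. With ATAC peaks joined over the lists, the open sites that these ERG peaks touched were nonetheless called in all 3 lists. The exon 3 peak was the 1 ERG peak near these genes within 500 bp of an ERK2 peak, which lay 336 bp on, at chr17:48142320-48142595, in RWPE1-ERG cells. That ERK2 peak was weak, with a fold enrichment of 3.70 and a q-value above 0.5. It came from another line than the ERG peak, which was of RWPE1-ERG+mAKT cells. LAMA3 had a peak over exon 38 at chr18:21451496-21451604 (fold enrichment 4.24, q = 0.206), which lies before an internal start from which the shorter α3 transcripts begin. The VCaP list had 2 peaks, in ITGA6 and in ITGB1, at other places than in RWPE1-ERG+mAKT cells, where 23.5% of expressed genes had a peak.

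The sequences of 5 of these ERG peaks are given to show what ETS letters they hold (hg19, plus strand, 5′ to 3′). Capitals mark matches on either strand to the ETS core (AGGAAA and AGGAAG as well as CGGAAA and CGGAAG), to a longer ETS sequence that contains the core (AGGAAGTG and CGGAAGTG) and to the AP-1 sequence (TGACTCA and TGAGTCA).
ITGA6 intron 1, chr2:173311322-173311495: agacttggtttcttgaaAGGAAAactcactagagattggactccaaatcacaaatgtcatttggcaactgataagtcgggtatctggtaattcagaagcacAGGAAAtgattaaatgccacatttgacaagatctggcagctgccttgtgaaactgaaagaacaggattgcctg
ITGB1 longer transcript, chr10:33274759-33274917: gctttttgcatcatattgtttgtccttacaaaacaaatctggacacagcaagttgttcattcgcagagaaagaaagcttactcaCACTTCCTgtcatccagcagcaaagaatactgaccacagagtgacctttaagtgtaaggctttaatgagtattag
ITGA3 exon 3, chr17:48141833-48141983: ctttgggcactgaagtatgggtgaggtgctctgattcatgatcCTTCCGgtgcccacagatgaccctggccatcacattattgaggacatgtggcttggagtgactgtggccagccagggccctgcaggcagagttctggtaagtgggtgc
LAMA3 exon 38, chr18:21451496-21451604: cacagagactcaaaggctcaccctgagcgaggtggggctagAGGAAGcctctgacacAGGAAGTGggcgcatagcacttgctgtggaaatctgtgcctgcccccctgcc
ITGB6 upstream, chr2:161062087-161062279: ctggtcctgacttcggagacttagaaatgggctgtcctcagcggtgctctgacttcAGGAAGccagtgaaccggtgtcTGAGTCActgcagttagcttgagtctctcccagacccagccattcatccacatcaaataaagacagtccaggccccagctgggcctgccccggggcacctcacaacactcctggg

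Within 100 bp of the summit, 6 of the 10 ERG peaks held an ETS core, against 51.5% of all 9113 peaks of the list. The longer ETS sequence was in 2 of the 10, at ITGB1 (on the minus strand, 6 bp from the summit) and at LAMA3 (19 bp from the summit), against 3.77% of the list. An AP-1 sequence was in 1 of the 10, upstream of ITGB6, against 8.45% of the list. A match is a description of letters and does not show binding through them.

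In the vector line, ERK2 peaks were found at all 9 genes (32 peaks, with 76.5% of expressed genes having one), and in the ERG line at 7 of 9 (24 peaks, with 32.1% of expressed genes having one). The lists differ in size and depth, with 41276 peaks from 8393459 ChIP reads for the vector line and 5721 peaks from 15020233 ChIP reads for the ERG line, so their counts cannot be set against each other. In the RWPE1-ERG list the 9 genes had 2.06 peaks per 100 kb against 0.642 for all expressed genes, and in the RWPE1-vector list 2.75 against 2.24. By q-value most were weak, as were most peaks of both lists. Near the 9 genes, 17 of the 32 peaks of the vector line and 23 of the 24 of the ERG line had a q-value above 0.5. A q-value of at most 0.01 was reached by 2 of the 32 (306 of 41276 in the list) and 1 of the 24 (178 of 5721). ITGB4 had the most peaks, 7 in each list, of which 3 in each list lay in intron 1. Not all counted peaks lay within the named genes. In the vector line 8 of the 32 lay upstream and 4 downstream, and in the ERG line 4 of the 24 lay upstream and 4 downstream. Some of the downstream peaks, at ITGB4 in the ERG line and at ITGA2 in both lines, overlapped an untranslated region of another gene.

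The strongest ERK2 peak at any of the 9 genes lay at −0.836 kb from the start of LAMB3 in RWPE1-vector cells, at chr1:209826452-209826760, with a fold enrichment of 6.27 (q = 1.78e-05), in the top 0.184% of its list by fold. It was open in all 3 ATAC lists, and the RWPE1-ERG list had no ERK2 peak within 500 bp of it. LAMA3 had 3 ERK2 peaks in the vector line and 0 in the ERG line, and 1 of the 3, at chr18:21452831-21453063 (fold enrichment 4.31, q = 0.126), covered the internal start of LAMA3. A vector peak without a match was common, since 21.9% of those near the 9 genes and 2.13% of the whole list overlapped an ERK2 peak of RWPE1-ERG cells. In intron 1 of ITGA6, an ERK2 peak of RWPE1-vector cells at chr2:173306928-173307330 had a fold enrichment of 5.84 (q = 0.000441), and RWPE1-ERG cells had an overlapping one at chr2:173306835-173307112 with a fold enrichment of 2.93 (q = 1). In intron 1 of ITGB4, 1.91 kb after the start, the RWPE1-ERG peak at chr17:73719046-73719854 had a fold enrichment of 5.33 (q = 0.00731), and an overlapping peak in RWPE1-vector cells had one of 4.31 (q = 0.126). Both of these intron sites were open in all 3 ATAC lists. Of the ERK2 peaks near the 9 genes, 56.3% in the vector line and 62.5% in the ERG line overlapped an ATAC peak of some line, against 10.6% and 46.1% of the lists.

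Sequences of 4 ERK2 sites are given because they were the strongest in their gene or lay at the LAMA3 internal start, with capitals as above. The LAMB3, ITGA6 and ITGB4 peaks, which are longer than 300 bp, are shown from 100 bp before to 100 bp after the summit, and the LAMA3 site ends at the base before the transcript start.
LAMB3 upstream, chr1:209826471-209826671: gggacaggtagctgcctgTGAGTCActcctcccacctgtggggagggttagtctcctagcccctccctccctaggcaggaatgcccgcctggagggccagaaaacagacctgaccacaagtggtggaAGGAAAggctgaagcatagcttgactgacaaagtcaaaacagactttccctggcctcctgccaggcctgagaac
LAMA3 internal start, chr18:21452831-21452983: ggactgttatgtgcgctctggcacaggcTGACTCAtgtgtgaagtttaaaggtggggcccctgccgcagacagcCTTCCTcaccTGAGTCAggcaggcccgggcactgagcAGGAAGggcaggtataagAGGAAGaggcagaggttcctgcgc
ITGA6 intron 1, chr2:173306999-173307199: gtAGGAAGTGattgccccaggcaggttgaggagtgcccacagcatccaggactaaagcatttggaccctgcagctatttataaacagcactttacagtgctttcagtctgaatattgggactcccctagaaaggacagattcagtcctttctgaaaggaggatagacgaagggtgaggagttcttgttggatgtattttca
ITGB4 intron 1, chr17:73719359-73719559: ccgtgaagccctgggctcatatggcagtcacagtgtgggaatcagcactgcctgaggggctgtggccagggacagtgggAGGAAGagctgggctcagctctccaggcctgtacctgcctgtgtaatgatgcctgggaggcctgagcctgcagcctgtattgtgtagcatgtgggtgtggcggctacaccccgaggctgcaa

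The LAMA3 site held 3 ETS cores and 2 AP-1 sequences in 153 bp, and the LAMB3 site held 1 of each. Within 100 bp of the summit, 14 of the 32 ERK2 peaks of RWPE1-vector cells held an ETS core, 43.8% against 41.4% of the list, and 10 of the 24 of RWPE1-ERG cells did, 41.7% against 47.8%. An AP-1 sequence was in 2 of 32 (3.83% of the list) and in 2 of 24 (7.74% of the list). The longer ETS sequence was in 2 of 32 (6.25%, against 1.46% of the list) and in 2 of 24 (8.33%, against 2.71%).

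All 9 genes were near ATAC peaks in each line, as were 98.2% to 99.0% of expressed genes. Merged over the 3 lists, 91 open sites lay around the 9 genes, 47 of them open in all 3 lines, 14 only with ERG, 14 only with mAKT and 2 only with both. Of all merged sites in the genome, 45.0% were open in all 3 lines, 19.7% only with ERG, 12.3% only with mAKT and 3.15% only in RWPE1-ERG+mAKT cells, whose list is the smallest, with 42081 peaks against 63354 and 57999. The start of each gene was open in all 3 lists. The strongest ATAC peak near these genes was in each line the one over the internal start of LAMA3, with a fold enrichment of 13.1 with ERG, 10.1 with mAKT and 11.8 with both. At the start of the long LAMA3 transcript the fold enrichment was 12.0, 7.34 and 5.46 in the same order, where the medians of the lists were 6.41, 5.26 and 5.49. Sites shared by the 2 mAKT lines and absent from the RWPE1-ERG list numbered 3 of the 91, all at LAMA3, where 3.10% of all merged sites in the genome had this pattern. At LAMB3, 2 of 10 sites were open in all 3 lines.

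**Figure D5:**
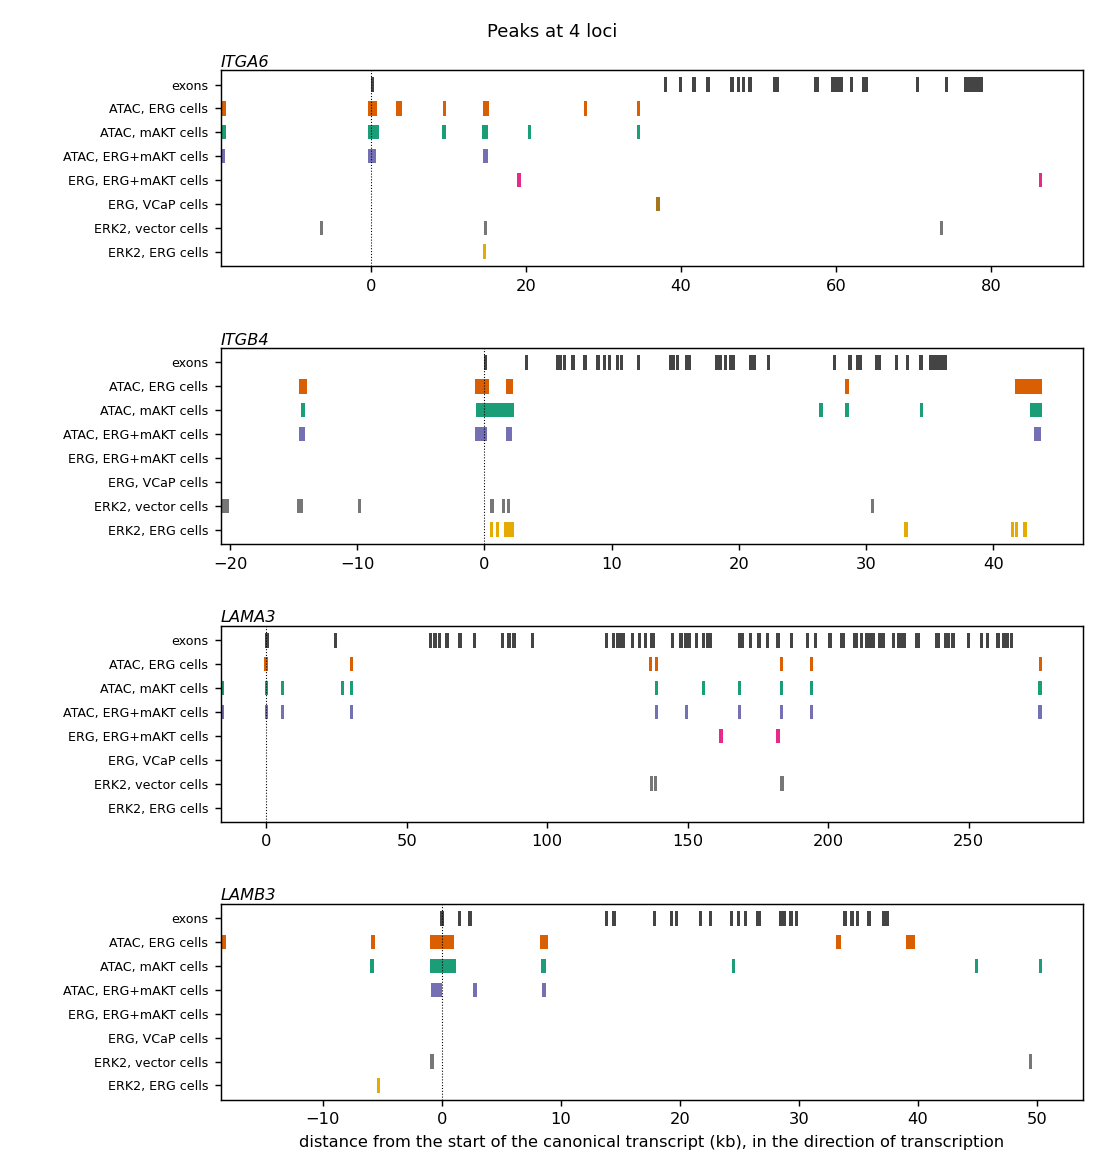
Peaks of 7 lists and exons of the canonical transcript at ITGA6, ITGB4, LAMA3 and LAMB3, by distance in kb from the canonical start, with 1 track a list and the width of narrow peaks drawn larger than to scale so that they can be seen. ERG peaks of RWPE1-ERG+mAKT cells are seen at ITGA6 and LAMA3 and at neither ITGB4 nor LAMB3, and 3 of the 7 ERK2 peaks of ITGB4 lie just after its start in each line.

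H3K27me3, the mark left by the PRC2 complex, was not detected firmly at these genes. The vector line had 54 peaks around all 9 of them (11130 of 11598 expressed genes had a peak) and the ERG line 12 at 3 genes (60.3% of expressed genes). The line with ERG S96E, a phosphomimetic mutant of a serine that ERK2 phosphorylates, had 19 at 4 genes (67.1%). None of these peaks had a q-value of at most 0.01, the highest fold enrichment was 2.55, and 0 lay within 1 kb of a canonical start. Few peaks anywhere reached that q-value, 29 in the whole list with vector, 39 with ERG and 3413 with ERG S96E. The lists held 492265, 228233 and 252784 peaks, and the 9 genes had fewer per 100 kb than all expressed genes in each, 4.64 against 11.5 with vector, 1.03 against 3.42 with ERG and 1.63 against 4.48 with ERG S96E.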

How the data were processed

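RNA-seq reads were aligned with TopHat2 and summarised with Cuffdiff by the authors, who deposited FPKM for 26255 gene rows, pooled over 3 libraries a line. The table's columns of log2 ratios, test scores, p-values and q-values are the authors' own comparisons and were not used. ChIP-seq and ATAC-seq reads were aligned to hg19 with Bowtie2, duplicates were removed and peaks were called with MACS2. The deposited peak lists give a pileup signal, a fold enrichment (the ratio to input or local background), a −log10 p-value and a −log10 q-value a peak. DNA of 3 independent ChIPs was pooled a list. The headers of 7 lists state their depth (8393459 to 35688481 reads) and the others state none. The ERK2 headers give a p-value limit of 0.01.

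The 9 genes and the partner lists were chosen with earlier results of these data known. Log2 ratios were taken from FPKM without a pseudocount, and a ratio of at least 1.5-fold among genes at 1 FPKM or more in either line was counted. Named partners are those past that limit, up to 3 highest and 3 lowest a list, plus direct partners of the 9 genes (ITGAV, COL17A1, DST, PLEC and CD151). Named peaks are the highest by fold enrichment in each list, ERG peaks in an ATAC peak, and ERG peaks within 500 bp of an ERK2 peak, with the LAMA3 sites named after their position was seen. Overlap means at least 1 bp, and the positions of 11598 of 12670 expressed genes were matched by symbol to GENCODE release 44 on GRCh37. Another gene fixed by that rule is not reported here. The table holds 0 columns of single samples. The lists given with the VCaP input and with the LY294002-treated VCaP ChIP were not used here, since their contents do not match those samples' labels, and no list of RWPE1-vector ATAC peaks was analysed here. The code was tested on simulated data with Python 3.11.15, numpy 2.4.6, pandas 2.3.3 and pysam 0.24.0.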

Additional observations from a re-analysis of the deposited data

Results flagged for a closer look

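On the scale as deposited, the effect of a construct lay on opposite sides of 0 without and with the other construct for 5 of the 9 genes, and none of these differences was tested, since each line has 1 pooled value. LAMA3 had a log2 ratio for ERG of 0.63 without mAKT and −0.34 with it, a difference of −0.97. ITGA5 had 0.30 and −0.12, a difference of −0.42, and ITGB1 had 0.06 and −0.24, a difference of −0.30. ITGB6 was the reverse, with −0.04 without mAKT and 0.33 with it, a difference of 0.37. For ITGA3 it was the mAKT effect that changed side, from 0.03 without ERG to −0.32 with it, a difference of −0.36. Of these, LAMA3 alone was past 1.5-fold in its difference. With the lines rescaled to the same summed FPKM, the ERG effects lay on the same side of 0 for ITGA5 (−0.26 and −0.10) and for ITGB1 (−0.50 and −0.22). The mAKT effect of ITGA3 turned around (−0.16 and 0.06). The ERG effects of LAMA3 (0.07 and −0.33) and of ITGB6 (−0.59 and 0.35) stayed on opposite sides. On that scale alone, the mAKT effects without and with ERG also lay on opposite sides for ITGA2 (−0.58 and 0.04), ITGA6 (−0.30 and 0.30) and ITGB6 (−0.61 and 0.33).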

How the results depend on the processing

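Rescaling each line to the same summed FPKM changed how many of the 9 genes passed 1.5-fold from 3 (2 higher, 1 lower) to 5 (0 higher, 5 lower) for ERG over vector, with the calls of LAMA3 and LAMB3 lost, from 0 to 1 for mAKT over vector, from 4 to 2 for ERG+mAKT over ERG and from 2 to 6 for ERG+mAKT over vector. Under that scale LAMA3 had a log2 ratio for ERG over vector of 0.07 and LAMB3 of 0.39. Rescaling to the sum without small RNA genes, an alternative chosen after seeing the data, gave 2 genes for ERG+mAKT over ERG, 1 for ERG+mAKT over mAKT and 1 for the difference of ERG effects, which was ITGB6, higher at 0.77, since LAMA3 (−0.57) and LAMB3 (−0.47) no longer passed. On equal sums the difference counted 3 genes, all higher, in place of 2 lower. With a limit of 2-fold, 0 genes passed for ERG over vector, 2 for ERG+mAKT over ERG, 0 for ERG+mAKT over mAKT, 1 for ERG+mAKT over vector and 0 for the difference. With a lower limit, a log2 ratio of 0.32, 2 passed for mAKT over vector, 5 for ERG+mAKT over mAKT, 7 for ERG+mAKT over vector and 6 for the difference. Without a filter on low values and with a pseudocount of 1, the share of all genes past the limit became 5.02% for ERG over vector, 2.01% for mAKT over vector, 5.48% for ERG+mAKT over ERG, 3.39% for ERG+mAKT over mAKT, 4.36% for ERG+mAKT over vector and 6.33% for the difference, because more genes near 0 enter and the pseudocount shrinks their ratios. At a q-value of at most 0.01, genes with a peak numbered 2 for ERG in RWPE1-ERG+mAKT cells, 0 for VCaP, 2 for ERK2 in RWPE1-vector cells, 1 for ERK2 in RWPE1-ERG cells and 0 for each H3K27me3 list. H3K27me3 peaks lay within 5 kb of 1 gene and within 50 kb of 7 in RWPE1-ERG cells, and of 1 and 8 in RWPE1-ERG S96E cells. Within 50 bp of the summit, AP-1 was in 0 ERG peaks and 1 ERK2 peak of RWPE1-vector cells, an ETS core in 9 ERK2 peaks of RWPE1-vector and 5 of RWPE1-ERG cells, and the longer ETS sequence in 1 and 0. Of 216 values for single genes under these alternatives, 168 kept their direction and side of the limit, 21 changed sign without being past the limit on either scale, 14 newly passed it and 13 no longer did. No paired analysis was possible because each line has 1 pooled value, and for the same reason no library could be left out. With 1 list per mark and line, differences between peak lists cannot be told apart from differences in depth or ChIP quality.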
